A study of Mus musculus with 6 samples.

Results

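The comparison described here set testes in which the germ cells had lost both alleles of Sin3a against testes with both alleles intact. It rested on 4 of the 6 arrays of the series, 2 per genotype, each from the whole testes of 1 newborn male mouse (postnatal day 0, FVB.129/Sv mixed strain). A gene was a member if both VSKO arrays, or both WT arrays, measured it well above background, which left 33623 of 55681 probes and 24177 genes, with the brightest probe standing for a gene. VSKO testes carried Vasa-cre with a deleted and a floxed Sin3a allele, and WT testes carried Vasa-cre with 2 wild-type alleles, so Cre was present on both sides. The HEMI testes, with Vasa-cre, a deleted and a wild-type allele, entered the fit and are given beside the members. Several limits of the model come from the labels. Cre was driven by Ddx4 (Vasa, Mvh), a germ cell gene, the RNA came from all cells of the testis, and WT differed from VSKO in the deleted allele as well as in the floxed one.

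Sin3a encodes the scaffold of a corepressor that brings the histone deacetylases Hdac1 and Hdac2 to sequence-specific repressors. Around birth the male germ line consists of gonocytes, which rest in the centre of the cords among Sertoli cells and re-establish DNA methylation with the help of Dnmt3l and the piRNA pathway, while fetal Leydig cells outside the cords make androgens. Gonocytes are a small share of the cells of such a testis, and in whole-tissue RNA fewer cells of a type and less RNA per cell cannot be told apart.

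Between 59.2% and 64.5% of the spots of an array were well above background, no spot was saturated, and the number of arrays limits the precision of every value below. Levels are log2 processed signals minus the 75th percentile of the array, so that a level holds only within a probe, and differences are VSKO minus WT on that scale with the standard error (SE) of the fit. The 2 arrays of a group correlated across genes at r = 0.987 (VSKO) and 0.992 (WT), genes not being independent replicates. All arrays shared a slide and a scan, but VSKO and HEMI lay in its row 1 and WT in its row 2, so slide row and genotype cannot be told apart against WT. The words rose, fell and changed are kept for genes where limma's p-value, adjusted over all 24177 genes by the Benjamini-Hochberg method, was under 0.05. By the same rule 49 genes (0.203%) changed between HEMI and WT and 32 (0.132%) between VSKO and HEMI, comparisons that share arrays with the one described. Between VSKO and WT 307 genes changed, which is 1.27% of those tested. Of these 116 rose (0.480%) and 191 fell (0.790%). A RefSeq symbol was found for 214 of the 307, and the others are counted as genes under their names in the array files.

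Sin3a itself was lower in VSKO without passing the test. Its probe (chr9:56975655-56975714, mm9) read 0.61 and 0.38 in VSKO, 0.89 and 0.89 in HEMI and 1.09 and 1.11 in WT. Both VSKO arrays lay below every other array, and the difference was -0.60 (SE 0.13, adjusted p = 0.127). Whether this probe lies in the part of the gene that Cre removes is not given in the sources used here. None of the 24 measured genes of the Sin3 complex changed, and their median difference was 0.03, beside -0.01 over all genes. Hdac1, the deacetylase partner, differed by -0.24 (adjusted p = 0.403) and Sin3b, the paralogous scaffold, by 0.13 (adjusted p = 0.687).

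Germ cell RNA was present in every VSKO array, and no marker of germ cells as a whole passed the test. Ddx4, the RNA helicase whose promoter drives the Cre, stood at 1.73 and 2.08 in VSKO beside 2.05 and 2.25 for the WT testes. The groups overlapped, with a difference of -0.24 (SE 0.17, adjusted p = 0.564). Dazl, an RNA-binding protein of the germ line, read 1.49 and 1.33 against 1.54 and 1.90 in WT, a difference of -0.31 (adjusted p = 0.484). Mael, a piRNA factor, differed by -0.05 (adjusted p = 0.902), and the pluripotency factor Pou5f1 by -0.49 (adjusted p = 0.163). Of the 22 measured germ cell markers 12 had both VSKO arrays below both WT arrays, beside 23.5% of all genes, and 1 had them above, beside 22.5% of all genes. Their median difference was -0.22. With these levels the comparison is described as loss of the gene, not as a testis without germ cells. Kit, the stem cell factor receptor, differed by 0.03 (adjusted p = 0.973), with VSKO arrays at 0.27 and -0.52 on either side of WT. The difference of Kit turned to -0.0007 under median scaling of the arrays and to -0.36 without VSKO replicate 1.

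The changed genes were separated by how brightly their probes shone. A near-background gene was well above background on neither array of 1 group. The others were called bright where their mean over the 6 arrays was at or above the median of all genes (-0.44) and dim where it was below. Of 12089 bright genes 60 changed, of which 19 rose (0.157%) and 41 fell (0.339%). Of 11399 dim genes 161 changed, with 53 higher (0.465%) and 108 lower (0.947%). Of 689 near-background genes 86 changed, with 44 higher (6.39%) and 42 lower (6.10%). The 2 directions had unequal bases: 578 genes were near background in WT, of which 44 changed, and 111 in VSKO, of which 42 changed. A near-background gene entered only through the group in which it was high, so its share is a description of that choice and supports nothing. A gene well above background on only 1 array of a group likewise entered through the other group alone. Ranked by mean level in 4 bins of equal size, 20 genes of the brightest bin changed, of which 18 fell, and 165 of the dimmest bin. The median distance between the 2 VSKO arrays was 0.18 in the brightest bin and 0.32 in the dimmest.

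**Figure D1:**
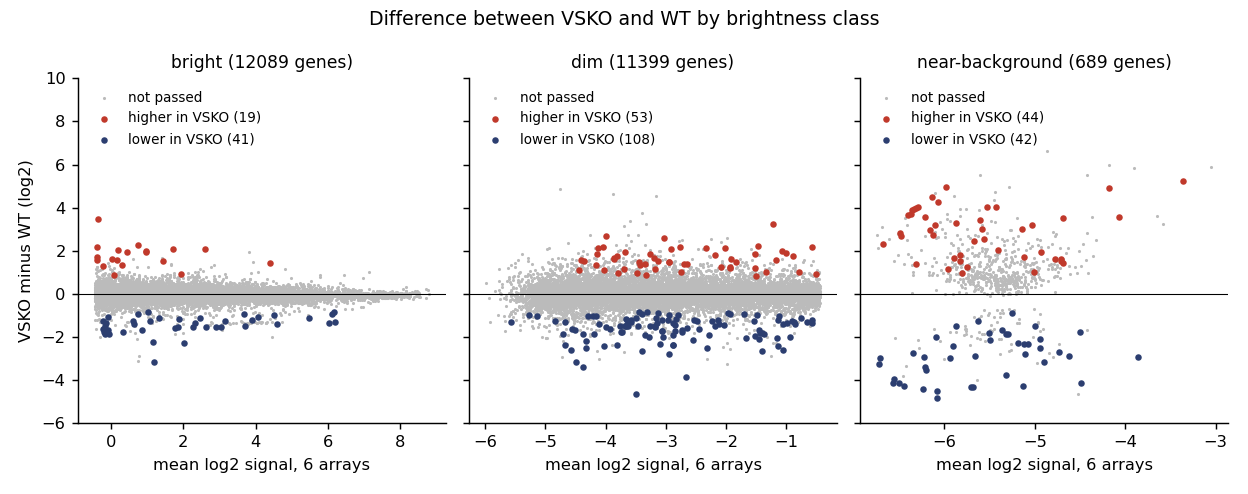
The difference VSKO minus WT (log2, vertical) is plotted against the mean log2 signal of the 6 arrays (horizontal) for bright, dim and near-background genes, with genes that passed limma at an adjusted p of 0.05 in red (higher) or blue (lower) and all others in grey. Of the bright genes 19 were higher and 41 lower, and the near-background genes form 2 clouds on either side of 0 because each was high in 1 group only.

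These counts depended on single arrays and on the filter. Without WT replicate 1 or without WT replicate 2 no gene passed, although 2617 and 2789 genes had an unadjusted p under 0.05; without VSKO replicate 1, 79 passed, and without VSKO replicate 2, 32 passed. Leaving out HEMI replicate 1 or HEMI replicate 2 left 96. With no filter on dim probes 12 genes passed, and with the intensity trend in the prior 138 bright genes passed in place of 60.

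Of the bright genes with a RefSeq symbol Ctsh, the lysosomal protease cathepsin H, fell most. Its VSKO arrays read -0.17 and 0.26 beside WT arrays at 3.16 and 3.31. They lay 9.14-fold below WT (difference -3.19, SE 0.28, adjusted p = 0.0243), and the HEMI arrays stood beside them at 0.64 and -0.07. Asb9, a substrate receptor of a ubiquitin ligase, read -0.07 and -0.45 in VSKO, 1.80 and 1.74 in HEMI and 1.63 and 2.37 in WT. Here HEMI lay with WT and only the VSKO arrays were low (difference from WT -2.26, adjusted p = 0.0404; difference from HEMI -2.03, adjusted p = 0.108). Tstd1, a sulfurtransferase-domain protein, had a similar layout, with 0.03 and -0.37 in VSKO, 0.75 and 0.94 in HEMI and 1.25 and 1.24 in WT (difference -1.41, adjusted p = 0.0404). Vill, a villin-like actin-binding protein, fell too (difference -1.48, adjusted p = 0.0283), and HEMI differed from WT by the same -1.48 (adjusted p = 0.0565). Ltb, the cytokine lymphotoxin beta, fell by 1.26 and H2bc4, a core histone, by 1.12 (adjusted p = 0.0437 and 0.0387). Histone genes are near-identical copies, so the signal of H2bc4 may include others of its family. Arl14epl fell by 1.13 (adjusted p = 0.0426).

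**Figure D2:**
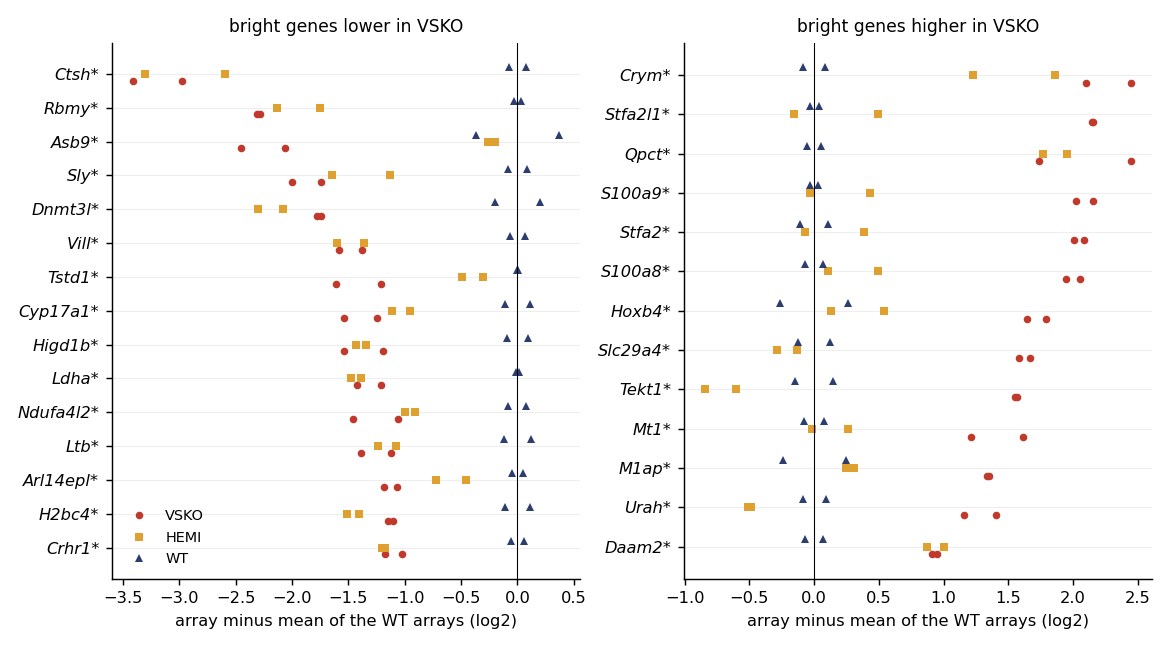
Each array is plotted as its log2 level minus the mean of the WT arrays of that gene (horizontal) for the 15 bright genes that fell most among those with a RefSeq symbol other than a predicted or clone name (left) and the 13 named bright genes that rose (right), with red circles for VSKO, orange squares for HEMI, blue triangles for WT and an asterisk for an adjusted p under 0.05. Ctsh, Ldha and Dnmt3l have HEMI beside VSKO, while Asb9, S100a9, Slc29a4 and Tekt1 have HEMI beside WT.

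Dnmt3l, the cofactor of de novo DNA methylation in gonocytes, fell 3.39-fold. Its levels were -0.13 and -0.10 in VSKO, -0.65 and -0.43 in HEMI and 1.85 and 1.45 in WT. Every VSKO and HEMI array lay below both WT arrays, with a difference of -1.76 (SE 0.18, adjusted p = 0.0279) for VSKO and -2.19 (adjusted p = 0.0424) for HEMI, 2 comparisons that share the WT arrays. Dnmt3l was the only one of 26 measured genes of the piRNA pathway and DNA methylation to change, beside 1.27% of all genes. Among the others Rnf17, a tudor-domain protein of germ granules, read -1.98 and -2.50 in VSKO against -0.78 and -0.86 in WT (difference -1.42, adjusted p = 0.0727). Tdrkh, which tethers piRNA factors to mitochondria, differed by -0.98 (adjusted p = 0.0574), and the helicase Mov10l1 by -1.04 (adjusted p = 0.0803). In 17 of the 26 both VSKO arrays lay below both WT arrays, beside 23.5% of all genes, and the median of the list was -0.30. Dnmt3a and Dnmt3b, the enzymes that Dnmt3l assists, differed by -0.34 and 0.03 (adjusted p = 0.425 and 0.935). Tex19.1, a suppressor of retrotransposons in the germ line, went the other way, with 4.74 and 4.88 in VSKO, 3.45 and 3.81 in HEMI and 3.70 and 3.90 in WT (difference 1.01, adjusted p = 0.0793).

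Nanos2, the RNA-binding factor that keeps male germ cells out of meiosis, was near background in VSKO. It read -6.48 and -5.61 there, -2.68 and -2.17 in HEMI and -3.28 and -2.95 in WT. Both VSKO arrays were not well above background, while HEMI lay slightly above WT, and the level in WT was at least 7.14-fold higher than in VSKO (adjusted p = 0.0384). Nanos2 was kept through WT alone. It did not pass with normexp background correction, with quantile normalization or with only the VSKO and WT arrays in the fit. With only those arrays Dnmt3l, Ldha and Cyp17a1 did not pass either. Against HEMI the fitted difference of Nanos2 was -3.62 (adjusted p = 0.0560). Of 26 measured genes of gonocytes and spermatogonial stem cells 2 fell and 2 rose, beside 0.790% and 0.480% of all genes. Sall1, a zinc finger repressor, read -5.59 and -5.56 in VSKO, -3.86 and -3.85 in HEMI and -3.59 and -3.80 in WT, a fall by 1.88 (adjusted p = 0.0189) that was also found against HEMI (difference -1.72, adjusted p = 0.0385). Of the VSKO arrays 1 measured it well above background, so Sall1 was also kept through WT alone. With normexp background correction the difference of Sall1 was -0.58 and did not pass (adjusted p = 0.109). T, the transcription factor brachyury, rose from -3.47 and -3.98 in WT to -1.59 and -1.53 in VSKO (difference 2.17, adjusted p = 0.0388), with HEMI at -3.29 and -2.72, and the difference was 1.26 under normexp. Lhx1, a homeobox factor of stem spermatogonia, rose by 1.25 at its brightest probe (adjusted p = 0.0388), and HEMI differed from WT by 1.52 (adjusted p = 0.0501). Its other probe differed by 0.27, and with the mean of both probes the difference of Lhx1 was 0.76 and did not pass (adjusted p = 0.0877). Both Sall1 and Lhx1 are also known from the mesonephric duct, whose 15 measured markers had a median difference of 0.20. Elavl2, an RNA-binding protein, differed by -0.97 (adjusted p = 0.0520), Lin28b by -0.74 (adjusted p = 0.0860) and Sall4 by -0.76 (adjusted p = 0.127). The receptors Gfra1 and Ret, which carry the Gdnf signal, differed by -0.11 and -0.49 (adjusted p = 0.899 and 0.643).

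Of 23 measured enzymes and transporters of glycolysis 3 fell in VSKO, beside 0.790% of all genes, and none rose. Ldha, lactate dehydrogenase A, read 5.69 and 5.90 in VSKO, 5.64 and 5.72 in HEMI and 7.12 and 7.09 in WT. The VSKO and HEMI arrays lay together, 2.49-fold below WT in VSKO (difference -1.32, SE 0.13, adjusted p = 0.0272). Its other 2 probes gave -1.63 and -1.52, and the 3 lie at chr7:54110937-54110996, chr7:54107294-54107353 and chr7:54103010-54103069 (mm9). Pgk1, phosphoglycerate kinase, fell by 1.01 (adjusted p = 0.0388) and Eno1, enolase, by 0.94 (adjusted p = 0.0420). The array's design placed the brightest Pgk1 and Eno1 probes on chromosomes 3 and 2, away from the genes on X and 4, so copies elsewhere in the genome may share their signal. Below the threshold Slc16a3, the exporter of lactate, differed by -1.69 (adjusted p = 0.0535) and Tpi1, triosephosphate isomerase, by -1.12 (adjusted p = 0.0710). In 18 of 23 both VSKO arrays lay below both WT arrays, beside 23.5% of all genes, and the median was -0.40 for VSKO and -0.67 for HEMI, each against the same WT arrays. Slc2a3 and Pfkfb4 lay on the other side, at 0.19 and 0.24 (adjusted p = 0.505 and 0.470).

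Outside glycolysis 2 of 26 measured targets of the hypoxia response fell, beside 0.790% of all genes. P4ha1, the prolyl hydroxylase of collagen, read -1.47 and -1.11 in VSKO and 0.00 and 0.23 in WT (difference -1.41, adjusted p = 0.0402). Bnip3, a mitochondrial mitophagy receptor, read 3.28 and 3.49 against 4.29 and 4.34 (difference -0.93, adjusted p = 0.0488). In HEMI P4ha1 stood at -1.37 and -1.39 and Bnip3 at 3.34 and 3.37, beside VSKO in both cases. Vegfa differed by -0.79 (adjusted p = 0.243), Hif1a, the hypoxia-inducible factor, by -0.02 (adjusted p = 0.980), and the median of the list was -0.26. Higd1b, a pericyte gene of the hypoxia-induced domain family, and Ndufa4l2, a hypoxia-induced mitochondrial subunit, also fell, by 1.37 and 1.26 (adjusted p = 0.0391 and 0.0492), with HEMI at -0.57 and -0.66 and at -0.48 and -0.39 beside WT values of 0.67 and 0.86 and of 0.43 and 0.59.

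The promoters of Ldha, Pgk1 and Bnip3, members that fell together, are printed. ACGTG is the core of the element that hypoxia-inducible factors bind, and all 3 printed promoters hold it. Eno1 and P4ha1 also fell, and their sites are given below without the sequences. Sequences are from RefSeq (GRCm38.p6), 250 bases before to 50 after the start, 5′ to 3′ on the gene's strand, with ACGTG on either strand in capitals and overlapping matches on the 2 strands counted as 1 site. Ldha (chr7:46845554-46845853, plus strand) holds 3 sites, Pgk1 (chrX:106186850-106187149, plus strand) 2 and Bnip3 (chr7:138909457-138909756, minus strand) 1.
Ldha: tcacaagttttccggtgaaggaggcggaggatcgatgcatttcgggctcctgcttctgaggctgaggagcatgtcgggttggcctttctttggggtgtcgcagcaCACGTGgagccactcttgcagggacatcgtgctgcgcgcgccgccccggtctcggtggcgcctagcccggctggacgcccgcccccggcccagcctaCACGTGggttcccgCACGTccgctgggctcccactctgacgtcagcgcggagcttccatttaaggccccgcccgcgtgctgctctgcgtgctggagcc
Pgk1: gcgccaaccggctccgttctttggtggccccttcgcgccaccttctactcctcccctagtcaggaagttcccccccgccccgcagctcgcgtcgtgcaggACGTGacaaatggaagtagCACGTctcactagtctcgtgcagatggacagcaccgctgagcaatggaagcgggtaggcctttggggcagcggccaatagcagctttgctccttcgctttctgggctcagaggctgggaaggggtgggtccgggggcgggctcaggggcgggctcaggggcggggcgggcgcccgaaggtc
Bnip3: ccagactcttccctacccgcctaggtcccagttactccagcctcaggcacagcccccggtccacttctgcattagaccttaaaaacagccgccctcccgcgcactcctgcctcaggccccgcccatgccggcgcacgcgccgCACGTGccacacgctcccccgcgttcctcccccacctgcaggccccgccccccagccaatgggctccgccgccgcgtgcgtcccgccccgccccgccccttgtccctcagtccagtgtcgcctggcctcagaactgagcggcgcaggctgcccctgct
Of the 32851 promoters given by RefSeq, 19.6% hold at least 1 such site and 2.69% hold 2 or more. P4ha1 holds 1 site, while the 3 Eno1 windows and the other Ldha window hold none, which says only that these letters are not in these windows.

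Steroid synthesis by fetal Leydig cells showed falls in 2 of 19 markers, beside 0.790% of all genes. Cyp17a1, the enzyme that turns progestins into androgens, read 3.86 and 4.15 in VSKO, 4.29 and 4.44 in HEMI and 5.29 and 5.50 in WT. Every VSKO array lay below every HEMI and WT array, 2.63-fold below WT (difference -1.40, SE 0.16, adjusted p = 0.0384). Crhr1, a receptor for corticotropin-releasing hormone, fell by 1.10 (adjusted p = 0.0344), with HEMI at -0.49 and -0.51 beside VSKO at -0.49 and -0.34. Star, the cholesterol carrier of mitochondria, read 1.48 and 1.36 against 2.70 and 3.79 in WT and did not pass (difference -1.83, adjusted p = 0.139). Cyp11a1, which makes pregnenolone, differed by -0.89 (adjusted p = 0.0728), while Hsd3b1, a later step, differed by 0.03 (adjusted p = 0.952). The median over the 19 was -0.16. Cholesterol synthesis, which feeds this pathway, had 0 of 24 enzymes past the test. In 21 of them both VSKO arrays lay below both WT arrays, beside 23.5% of all genes, and the median was -0.48. Dhcr7, the last reductase, read 0.72 and 1.08 against 1.92 and 2.24 (difference -1.18, adjusted p = 0.0860), and Fdps, farnesyl diphosphate synthase, 4.61 and 4.64 against 5.48 and 5.66 (difference -0.95, adjusted p = 0.0657); both passed with an intensity trend in the prior (adjusted p = 0.0440 and 0.0247).

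Chaperones of the endoplasmic reticulum, a list chosen after values had been seen, had 3 of 22 members lower, beside 0.790% of all genes. Calr, the calcium-binding chaperone calreticulin, read 3.59 and 3.82 in VSKO, 3.65 and 3.81 in HEMI and 4.76 and 4.80 in WT (difference -1.07, adjusted p = 0.0440). Sdf2l1 fell by 1.34 and the disulfide isomerase Pdia4 by 0.86 (adjusted p = 0.0317 and 0.0488). Hspa5, the main chaperone of the unfolded protein response, differed by -0.59 (adjusted p = 0.188), and Xbp1, Atf4 and Ddit3, its regulators, by -0.20, 0.04 and 0.13 (adjusted p = 0.687, 0.961 and 0.805).

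The bright genes that rose included 4 known from neutrophils. S100a9, a calcium-binding protein of neutrophils, read 3.87 and 4.0 in VSKO, 2.28 and 1.82 in HEMI and 1.82 and 1.88 in WT. Both VSKO arrays lay above all others, 4.25-fold above WT (difference 2.09, SE 0.18, adjusted p = 0.0243), and the difference from HEMI was 1.89 (adjusted p = 0.0569). Its partner S100a8 read 2.15 and 2.26 against 0.14 and 0.28 (difference 2.00, adjusted p = 0.0243). Stfa2, a cysteine protease inhibitor of the stefin A cluster, rose by 2.05 and its neighbour Stfa2l1 by 2.15 (adjusted p = 0.0267 and 0.0306). Genes of this cluster are similar in sequence, so their probes may share signal. A list of neutrophil genes was drawn up after these values had been seen and is therefore no independent support. It had 7 of 27 members higher, beside 0.480% of all genes, the others being Cstdc4, Retnlg and Ifitm6. In 20 of 27 both VSKO arrays lay above both WT arrays, beside 22.5% of all genes, and the median difference was 1.33 for VSKO and 0.05 for HEMI. The secondary granule genes Ltf and Ngp read -0.50 and -1.94, and -2.06 and -2.87, in VSKO against -3.93 and -3.52, and -5.20 and -4.10, in WT (differences 2.51 and 2.18, adjusted p = 0.0994 and 0.131). The surface receptors Csf3r and Itgam differed by 0.13 and 0.09 (adjusted p = 0.836 and 0.873), the primary granule genes Mpo and Elane by -0.49 and -0.12 (adjusted p = 0.679 and 0.808). Ly6g, the 1 near-background member of the 27, was not well above background in WT and was kept through VSKO alone. The 17 macrophage markers had a median difference of -0.12 and none changed. Of the erythroid markers the globin Hba-a1 read 6.74 and 8.32 in VSKO against 6.79 and 6.81 in WT. What part a difference in blood cells between the animals has in these values was not tested.

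**Figure D3:**
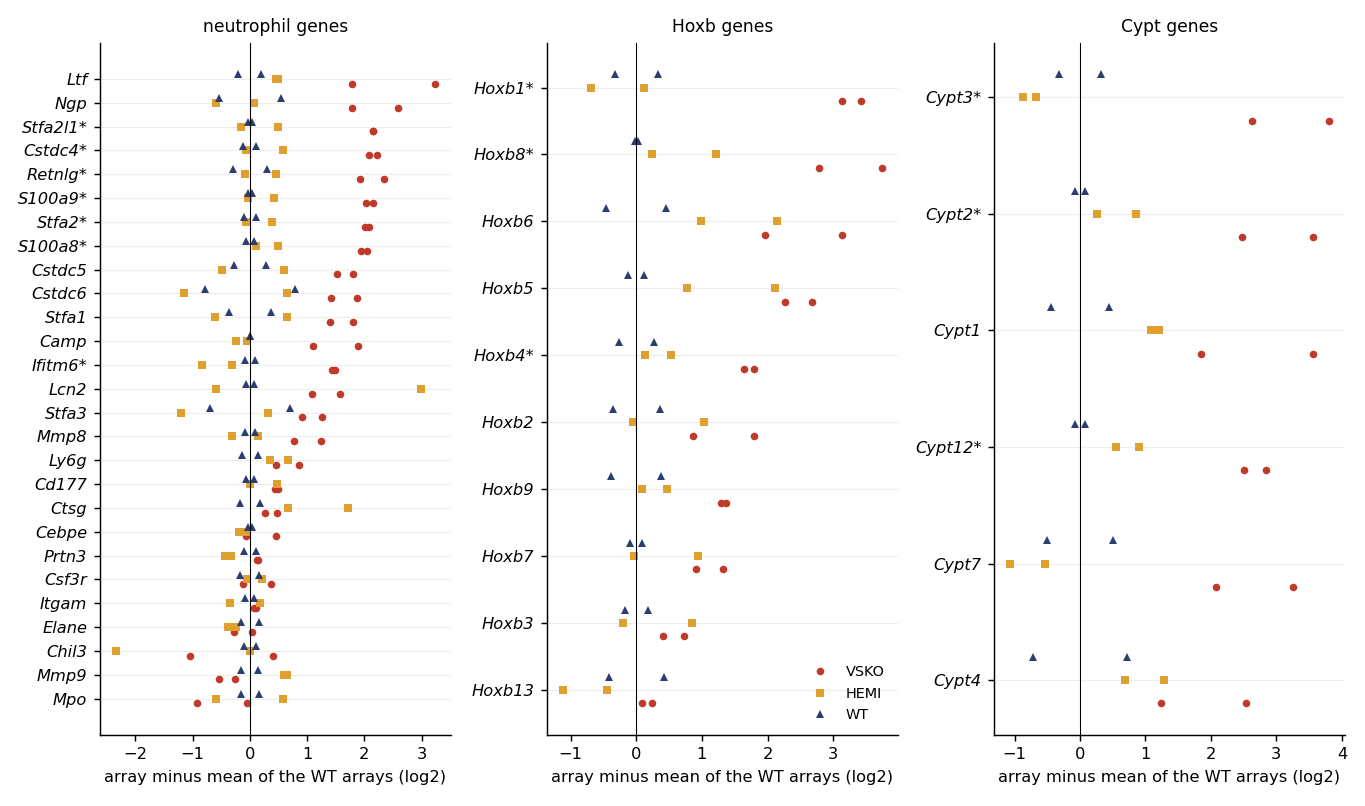
Each array is plotted as its log2 level minus the mean of the WT arrays of that gene (horizontal) for 27 neutrophil genes, 10 Hoxb genes and 6 Cypt genes, with red circles for VSKO, orange squares for HEMI, blue triangles for WT and an asterisk for an adjusted p under 0.05. The VSKO arrays lie to the right of both WT arrays for 20 neutrophil genes and for 9 Hoxb genes, while Mpo, Elane and Hoxb13 do not separate. Hoxb1 and all 6 Cypt genes were kept only because VSKO was high, so their separation follows from the filter. Ly6g was likewise kept through VSKO alone.

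Other bright genes rose in VSKO with HEMI near or below WT. Slc29a4, a monoamine transporter, read 1.22 and 1.13 in VSKO, -0.74 and -0.59 in HEMI and -0.58 and -0.33 in WT, a rise by 1.63 (adjusted p = 0.0243) that also held against HEMI (1.84, adjusted p = 0.0404). Tekt1, a filament protein of the sperm tail, read 0.88 and 0.89, -1.28 and -1.52, and -0.53 and -0.82 in the same order (difference from WT 1.56, adjusted p = 0.0283; from HEMI 2.28, adjusted p = 0.0375). Urah, an enzyme of urate breakdown, rose by 1.28 against WT and 1.78 against HEMI (adjusted p = 0.0344 and 0.0404). M1ap, a protein of meiotic germ cells, rose by 1.34 (adjusted p = 0.0488). Mt1, a metallothionein that binds zinc, read 5.10 and 5.50 against 3.81 and 3.96 (difference 1.41, adjusted p = 0.0483). A second, dimmer Mt1 probe differed by 0.53, and the mean of both probes by 0.97. Its relative Mt2 read 4.64 and 5.32 against 3.02 and 3.08 (difference 1.93, adjusted p = 0.0545). The 6 measured metallothionein and zinc genes, chosen after values had been seen, had a median of -0.11. Crym, a thyroid hormone-binding protein, had the largest rise of the named bright genes, from -0.62 and -0.45 in WT to 1.56 and 1.91 in VSKO (difference 2.27, adjusted p = 0.0344), with HEMI in between at 1.32 and 0.69. For Qpct, which cyclises the ends of peptides, and Daam2, a formin, HEMI lay with VSKO (differences of VSKO from WT 2.09 and 0.93, adjusted p = 0.0399 and 0.0466).

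The Hoxb cluster is a row of homeobox genes that pattern the body axis. In VSKO 3 of its 10 measured members were higher, beside 0.480% of all genes. In 9 of the 10 both VSKO arrays lay above both WT arrays, beside 22.5% of all genes. Among these 9, Hoxb1 was kept through VSKO alone. Hoxb8 read 0.23 and 1.19 in VSKO, -1.34 and -2.30 in HEMI and -2.53 and -2.57 in WT, a dim gene 9.57-fold higher than in WT (difference 3.26, SE 0.43, adjusted p = 0.0466). Hoxb4 read 0.56 and 0.71, -0.54 and -0.95, and -0.82 and -1.34 (difference 1.71, adjusted p = 0.0487). In both the HEMI arrays lay between the others or overlapped WT. Hoxb1 was not well above background in WT and at least 3.32-fold higher in VSKO (adjusted p = 0.0306). With normexp background correction Hoxb1 did not pass. Of the other 7, Hoxb5, Hoxb6, Hoxb9, Hoxb2, Hoxb7 and Hoxb3 differed by 2.47, 2.55, 1.33, 1.33, 1.12 and 0.57, with both VSKO arrays above both WT arrays (adjusted p from 0.0909 to 0.539), and Hoxb13, which lies apart from the cluster, by 0.16 (adjusted p = 0.864). The median of the 10 was 1.52. Of 24 measured entries with names that begin with Hoxa, Hoxc or Hoxd none changed, and their median was 0.02. This count goes by name and may include entries that are not Hox genes themselves.

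Genes of spermatids and the sperm tail, a list also chosen after values had been seen, had 7 of 22 members higher and 1 lower. The shares over all genes were 0.480% higher and 0.790% lower. Of the changed members Cypt2, Cypt3, Iqcf4 and the lower one, Spata4, were near background in 1 group. Dkkl1, a secreted protein of the acrosome, read 0.28 and 0.25 in VSKO, -1.69 and -1.84 in HEMI and -1.69 and -1.70 in WT. VSKO alone was high, against WT (difference 1.96, adjusted p = 0.0176) and against HEMI (2.03, adjusted p = 0.0220). Cypt12, of a family of cysteine-rich proteins of the spermatid's perinuclear theca, read -2.64 and -2.29, -4.58 and -4.23, and -5.05 and -5.21 (difference 2.67, adjusted p = 0.0200). With normexp background correction this difference was 1.14. All 6 measured Cypt genes were kept through VSKO alone, so their separation follows from the filter and shows nothing about the family. Cypt12 was well above background on 1 WT array and the other 5 on none. Of the other 5, Cypt2 and Cypt3 passed, at least 4.02-fold and 3.05-fold higher in VSKO. Family members are similar in sequence, so they may not be independent measurements. The ciliary gene Cfap206 rose by 1.67 (adjusted p = 0.0283). Major spermatid genes were at low levels and did not follow. Prm2, a protamine, differed by -0.27 (adjusted p = 0.688), the protease Acr by 0.22 (adjusted p = 0.535) and the transition protein Tnp1 by 0.70 (adjusted p = 0.190). Of 25 meiosis genes none changed. Sycp3 of the synaptonemal complex read 1.38 and 1.26 in VSKO against 0.56 and 0.74 (difference 0.67, adjusted p = 0.115), Stag3, a meiotic cohesin, 0.05 and 0.04 against 0.70 and 0.71 (difference -0.66, adjusted p = 0.102), and the list's median was 0.03.

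Among the other dim genes the largest fall was that of the noncoding RNA Platr26, from -0.36 and -0.57 in WT to -4.83 and -5.40 in VSKO (difference -4.65, SE 0.24, adjusted p = 0.0122), with HEMI at -5.10 and -4.75. Gpd1, a glycerol phosphate dehydrogenase, fell by 2.42 (adjusted p = 0.0272; HEMI replicate 2 was dropped for this probe as an outlier). Dmrtc1b, of a family of doublesex-related factors, fell by 2.42 and D5Ertd605e by 2.40 (adjusted p = 0.0189 and 0.0243), in both cases with HEMI between VSKO and WT. Prss29, a serine protease, fell by 2.61 (adjusted p = 0.0451). It was well above background on 1 VSKO array and was kept through WT alone. Vgf, a neuropeptide precursor, rose from -4.01 and -4.01 in WT and -3.65 and -3.67 in HEMI to -1.73 and -1.12 in VSKO (difference 2.58, adjusted p = 0.0243). Krt6b, an epithelial keratin, rose by 2.17 (adjusted p = 0.0283). These sizes depended on the background correction, since under normexp the differences were -2.81 for Platr26, -1.17 for Dmrtc1b, -1.51 for D5Ertd605e, 1.55 for Vgf and 0.95 for Krt6b, and Prss29, at -0.93, did not pass.

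Near-background genes are given as lower bounds, set for each array of the dimmer genotype by the lowest signal that stood well above background there. In VSKO the zinc finger gene Zfp874a was at least 14.3-fold higher than in WT, the calcium-binding S100g at least 9.52-fold, the keratin-associated Krtap3-3 at least 6.73-fold and Cacng2, a regulator of AMPA receptors, at least 5.05-fold (adjusted p = 0.0388, 0.0442, 0.0122 and 0.0267). In HEMI Zfp874a and Krtap3-3 stood at -2.05 and -1.76 and at -2.74 and -2.25, with VSKO at -2.33 and -0.64 and at -2.87 and -2.27, while Cacng2 lay with WT in HEMI and the difference of VSKO from HEMI passed the test (adjusted p = 0.0449). The second Cacng2 probe, which was well above background on 1 of the 4 arrays, went the other way, with -7.23 and -6.27 in VSKO against -5.44 and -4.94 in WT (difference -1.56). Under normexp Cacng2, Zfp874a and S100g did not pass. Lower in VSKO were the GTPase Gbp2b by at least 8.67-fold, Mecom, a zinc finger factor of stem cells, by at least 7.60-fold, Lrat, which esterifies retinol, by at least 7.27-fold, Upp2, a uridine phosphorylase, by at least 6.99-fold and Tmem190 by at least 5.05-fold (adjusted p = 0.0402, 0.0189, 0.0242, 0.0110 and 0.0189). Of 14 guanylate-binding and related GTPases, a list chosen after values had been seen, Gbp11 also fell (difference -2.39, adjusted p = 0.0466) and the median was -0.23. HEMI arrays were low together with VSKO for Gbp2b (-7.06 and -7.14), Mecom (-7.76 and -6.94), Lrat (-6.01 and -5.38) and Upp2 (-7.18 and -7.63). Nanos2 was the only named near-background fall in which HEMI did not lie below WT. With normexp background correction the fitted differences of the 12 named near-background genes ranged in size from 0.94 to 2.10, in place of 2.70 to 5.22, so the bounds hold for the processed signal. Second probes of Mecom and Upp2 were well above background on none of the 4 arrays.

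**Figure D4:**
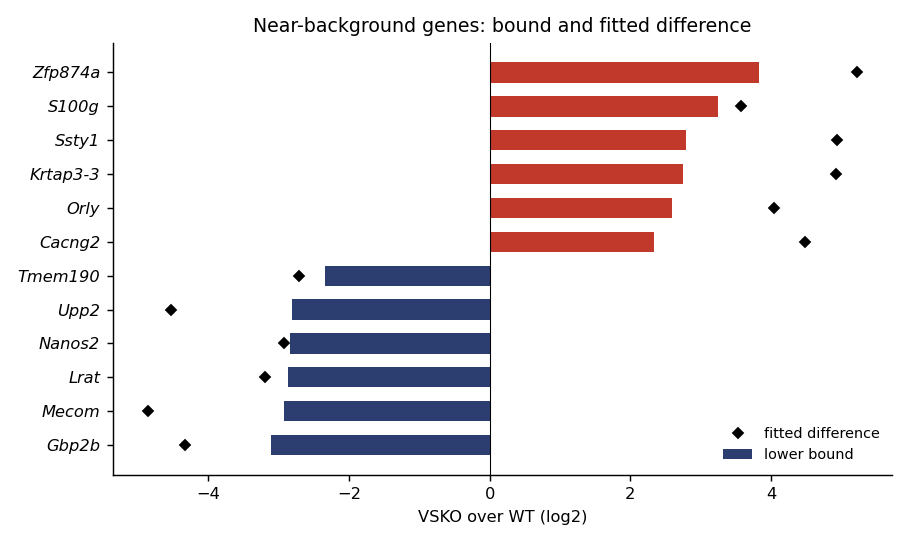
Bars give the lower bound of the log2 ratio of VSKO over WT for the 12 named near-background genes, red where VSKO was higher and blue where it was lower, and diamonds give the fitted log2 difference. The bounds run from 5.05-fold for Cacng2 and Tmem190 to 14.3-fold for Zfp874a, and each fitted difference lies beyond its bound.

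On the Y chromosome 12 of 43 entries tested as genes changed, 10 of them lower, beside 1.27% of all genes. These entries include many without a RefSeq symbol, and near-identical copies may share signal. The 12 are therefore not a count of independent genes. Rbmy, an RNA-binding splicing factor of germ cells, read 1.11 and 1.14 in VSKO, 1.29 and 1.67 in HEMI and 3.45 and 3.40 in WT (difference -2.30, SE 0.16, adjusted p = 0.0190). Sly, a regulator of sex-linked genes in spermatids, read -1.07 and -0.82, -0.72 and -0.20, and 0.84 and 1.01 (difference -1.87, adjusted p = 0.0369). In the other direction Ssty1 and Orly were near background in WT and HEMI and at least 6.93-fold and 6.02-fold higher in VSKO (adjusted p = 0.0243 and 0.0487). Each rise rested on 1 probe. Of the other 2 Ssty1 probes 1 was well above background on none of the 4 arrays, and 1 only on a WT array, where it read -2.96 beside -8.00 and -7.81 in VSKO; the other Orly probe was well above background on none of the 4. All of these belong to families of many near-identical copies, and their probes cannot tell the copies apart. The single-copy genes Ddx3y, Eif2s3y and Usp9y did not change. Ddx3y, a helicase, differed by 0.12, Eif2s3y, a translation factor, by -0.29 and Usp9y by -0.01 (adjusted p = 0.716, 0.349 and 0.993).

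Few markers of the other cell types changed. Among 24 Sertoli cell markers none changed and the median was -0.04; Sox9, which specifies these cells, differed by 0.21 (adjusted p = 0.779) and Amh, the hormone they secrete, by -0.31 (adjusted p = 0.503). The sign of Sox9 turned to -0.12 without WT replicate 2. The tight junction protein Cldn11 read 2.15 and 1.81 in VSKO, 2.47 and 1.89 in HEMI and 0.87 and 1.20 in WT (difference 0.95, adjusted p = 0.188). Interstitial progenitor, peritubular myoid and endothelial markers had medians of -0.02, 0.07 and -0.09 with no member changed. The 18 measured skeletal muscle markers had a median of -0.92, the farthest from 0 of the 25 lists, and 16 were negative; without WT replicate 1 the median difference of skeletal muscle markers was 0.14. They varied between animals, and Myl1, a fast myosin light chain, read -4.86 and 1.59 in VSKO and 3.30 and -0.27 in WT; Trim63, a ubiquitin ligase of muscle, fell by 1.32 (adjusted p = 0.0388), and what part this variation has in its fall was not tested. Of 22 interferon response genes Isg15 fell, from 0.08 and -0.12 to -1.11 and -1.34 (difference -1.21, adjusted p = 0.0483), with HEMI at -0.35 and -0.60 and a list median of -0.33. The 15 measured erythroid markers had a median of 0.30. No member changed among subunits of oxidative phosphorylation, ribosomal proteins, collagens, p53 targets, G2 and M phase genes or S phase genes, with medians of -0.05, -0.08, 0.03, 0.01, 0.11 and -0.18.

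**Figure D5:**
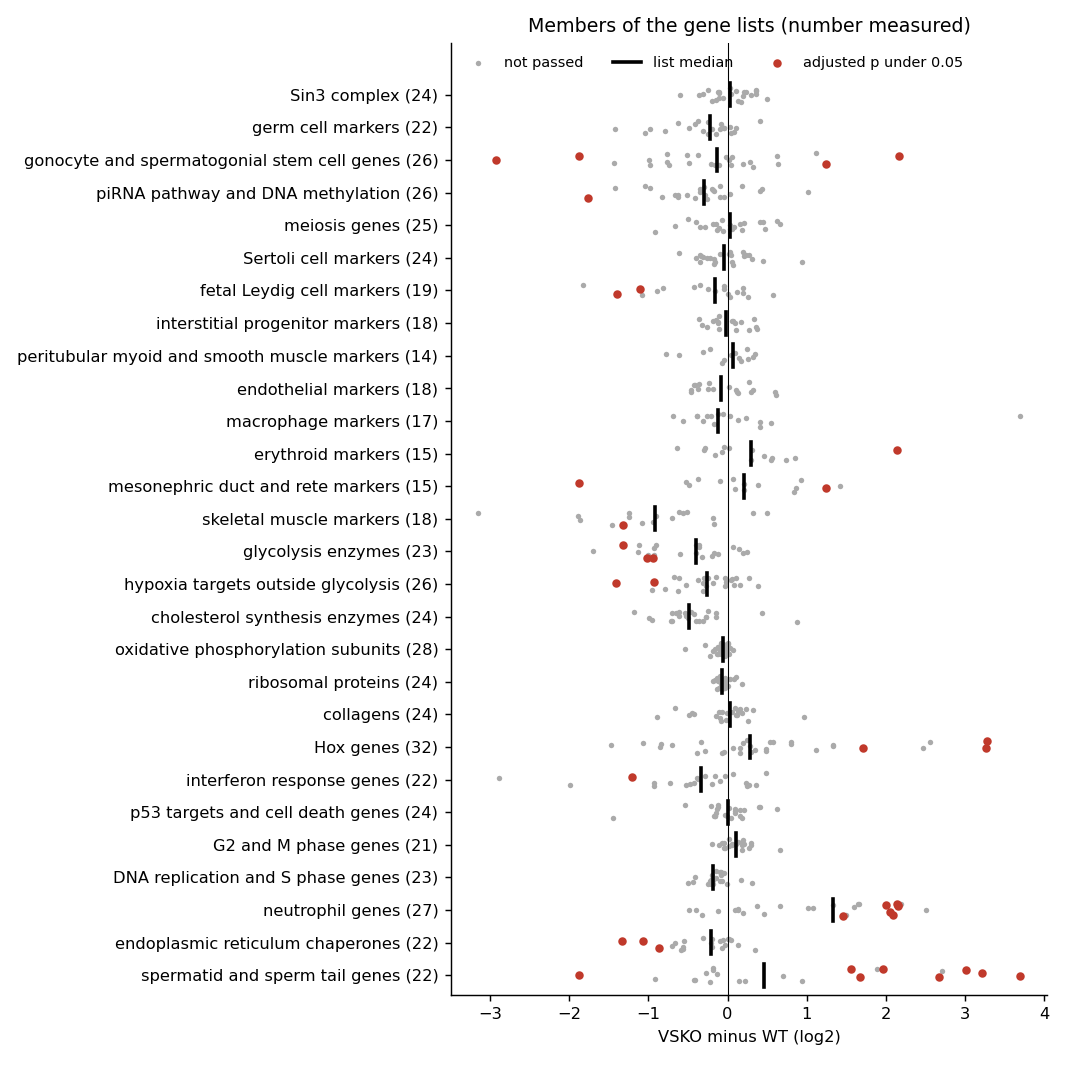
Each point is a gene of the list named at the left (number measured in parentheses) at its difference VSKO minus WT (log2, horizontal), in red where the adjusted p was under 0.05 and grey otherwise, and black bars mark the list medians. The median lies at 1.33 for neutrophil genes, at -0.40 for glycolysis enzymes, at -0.48 for cholesterol synthesis enzymes and at -0.22 for germ cell markers.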

How the data were processed

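RNA from the testes of single newborn mice was labelled in 1 colour and hybridised to Agilent arrays; the series design describes the arrays of a group as separate animals. Per the file headers, Feature Extraction 10.7.3.1 made the deposited intensity values, background-subtracted within each array, together with 0 or 1 quality flags (the submitters' processing notes name version 8.5.1.1). The deposited series table held the same intensity values divided by each array's median.

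Control spots and outlier-flagged spots were left out, log2 processed signals were centred on each array's 75th percentile, and spots of a probe were averaged. Probes well above background on both VSKO or both WT arrays were kept, and the brightest kept probe stood for a gene. Of 55681 probes 26762 were named through their accession in RefSeq's table (GRCm38.p6), 102 through another accession and 3751 by a symbol in that table, and 25066 kept the file's name; probe coordinates are the headers' mm9. The fit (R 4.3.3, limma 3.58.1, lmFit and eBayes) took all 6 arrays with 1 mean per group, with Benjamini-Hochberg adjustment over all genes tested; it was tested on simulated data. Tables were made with Python 3.11.15 and pandas 2.3.3. An exact permutation test of 2 arrays against 2 cannot go below p = 0.333. For near-background genes the bound set the bright group's mean against, per array of the dim group, the higher of the probe's own signal and the lowest signal well above background.

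Named genes were the markers Sin3a, Nanos2, Dnmt3l, Cyp17a1, Ldha, Ddx4, Dazl, Pou5f1, Kit, Sox9 and Amh, and, among changed genes with a RefSeq symbol that is no clone name, up to 15 bright, 5 dim and 6 near-background genes in each direction by size, up to 4 changed genes of each of 25 lists, and the 2 lowest p-values of a list without any. Other members of the lists were named after their values were seen, as were the genes of 5 added lists (neutrophil, chaperone, spermatid, metallothionein and guanylate-binding genes). One gene that the rule selects is not reported here. The members and lists were chosen with earlier results of these data known. Alternatives covered scaling, background correction, filters, the authors' table, the arrays in the fit, the prior, a replicate block, the probe per gene and each array left out.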

Additional observations from a re-analysis of the deposited data

How the results depend on the processing

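The counts of changed genes (307 in all, 60 bright, 86 near background) fell to 12, 0 and 11 with no filter on dim probes (4736 genes in all had an unadjusted p under 0.05 in limma), to 96, 13 and 47 with only the VSKO and WT arrays in the fit, and to 29, 1 and 23 with the replicate block. Same-numbered VSKO and WT arrays correlated at -0.02 in their deviations from the group means. With 2 arrays per group the deviations mirror each other, so this single value cannot tell whether the numbers paired the animals. Normexp background correction gave 123 bright and 34 near-background genes, and an intensity trend in the prior gave 138 bright genes. With each array left out the counts ranged from 0 to 96 in all, 0 to 13 bright and 0 to 47 near background; without WT replicate 1 or 2 no gene passed limma, with 2617 and 2789 at an unadjusted p under 0.05. Leaving out an array left 2 residual degrees of freedom and assumes that a lone array varies like the other groups. The cause of the other shifts was not tested. The filter for all 4 arrays leaves no near-background gene and gives no count for them. Of 60 named genes that changed none turned its direction under any alternative. Under median scaling 57 still passed, 53 under normexp, 47 under quantile normalization and 59 with the trend. With only the VSKO and WT arrays in the fit 22 passed, with the replicate block 5 and with no filter 3. Dnmt3l, Ldha, Cyp17a1, Hoxb4 and Hoxb8 were among those that did not pass with only the VSKO and WT arrays. The difference of Kit turned to -0.0007 under median scaling and with the authors' series table, ranged from -0.36 (without VSKO replicate 1) to 0.43 (without VSKO replicate 2) with each array left out, and was -0.0084 without WT replicate 1. The difference of Sox9 ranged from -0.12 (without WT replicate 2) to 0.53 (without WT replicate 1). Of 425 list medians 386 moved by less than the spread between arrays. Signal over background limits the near-background genes to bounds.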
